A study of Mus musculus with 4 samples.

Results

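The cells described here are the 2 ends of the Myog-expressing cells in cultures of activated mouse muscle stem cells: 1752 cells of the 23170 barcodes in the series. Myog encodes myogenin, the transcription factor that marks commitment of a myoblast to become a muscle cell. Cells were taken from each activated library on its own if they held at least 5000 UMIs (unique molecular identifiers, each standing for 1 captured transcript), at most 10% mitochondrial UMIs and at least 5 Myog UMIs per 10000. They were ranked by the summed UMIs of Acta1, Mylpf and Myh3 per 10000. The top 10%, called late cells, numbered 255 in extraocular muscle (EOM) and 245 in tibialis anterior (TA). The bottom 25%, called early cells, numbered 639 and 613. Between them lay 1665 and 1596 cells.

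The stem cells were sorted from Tg:Pax7-nGFP mice aged 2 to 4 months, in which a nuclear green fluorescent protein marks cells that use the Pax7 gene. EOM are the muscles that move the eye, and TA is a muscle of the lower leg. Both activated libraries, 1 for each muscle, held sorted cells kept for 4 days in growth medium, on a Matrigel coat and under 3% oxygen, and were measured by 10x Genomics droplet sequencing. The other 2 libraries hold quiescent cells, and only 3 (EOM) and 4 (TA) of their cells met the Myog limit, each with a score of 0. With 1 library for each muscle and state, nothing here was tested: differences are given by size, and intervals (95%, for a ratio of Poisson counts) cover counting error only.

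Skeletal muscle forms when proliferating myoblasts leave the cell cycle, switch on a contractile gene programme and fuse into multinucleated fibres. Myod1 and Myf5 act early in this sequence, Myog and the Mef2 factors later, and Id proteins hold it back by binding the partners of MyoD. The products include the thick filaments of myosin, the thin filaments of actin with troponin and tropomyosin, and the titin and Z-disc proteins that hold them in register.

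The 3 genes of the score encode skeletal alpha-actin (Acta1), a fast regulatory myosin light chain (Mylpf) and embryonic myosin heavy chain (Myh3). Their promoters are shown because these genes chose the cells, so their high level in late cells was set by the rule. The promoter of the alkali myosin light chain gene Myl1, which was not in the score but was high in late cells, is shown beside them. The windows are the 250 bases before the start, on the gene's strand, from RefSeq on GRCm38.p6. They lie at chr8:123894776-123895025 (minus strand), chr7:127211358-127211607 (plus), chr11:67078050-67078299 (plus) and chr1:66945057-66945306 (minus). In the GENCODE annotation the Mylpf gene begins at 127208890 and the Myl1 gene at 66945404. The windows of Mylpf and Myl1, placed by RefSeq starts, thus lie inside those genes, and another start would give another window. Capitals mark E-boxes (CANNTG, the same on both strands), the motif that MyoD-family factors bind.
Acta1: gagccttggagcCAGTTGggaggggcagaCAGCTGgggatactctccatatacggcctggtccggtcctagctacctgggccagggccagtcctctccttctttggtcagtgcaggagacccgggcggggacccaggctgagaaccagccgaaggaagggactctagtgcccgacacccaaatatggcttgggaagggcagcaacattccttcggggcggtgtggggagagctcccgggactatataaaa
Mylpf: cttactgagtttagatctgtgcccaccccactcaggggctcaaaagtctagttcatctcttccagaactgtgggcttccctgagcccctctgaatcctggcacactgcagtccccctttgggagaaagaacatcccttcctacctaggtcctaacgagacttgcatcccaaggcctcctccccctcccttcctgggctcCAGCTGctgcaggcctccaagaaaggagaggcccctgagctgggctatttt
Myh3: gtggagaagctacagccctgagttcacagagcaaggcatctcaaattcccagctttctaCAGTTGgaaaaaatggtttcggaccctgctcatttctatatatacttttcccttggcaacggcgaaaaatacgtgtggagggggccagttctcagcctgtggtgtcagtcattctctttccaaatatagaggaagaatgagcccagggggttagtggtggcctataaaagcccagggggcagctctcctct
Myl1: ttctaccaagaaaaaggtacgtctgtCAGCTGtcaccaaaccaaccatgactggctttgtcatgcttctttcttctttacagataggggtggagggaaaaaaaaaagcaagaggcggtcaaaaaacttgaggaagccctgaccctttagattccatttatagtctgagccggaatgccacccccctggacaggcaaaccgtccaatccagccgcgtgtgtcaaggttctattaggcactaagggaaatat

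Acta1 held 2 E-boxes and the other genes 1 each. An E-box of the form CAGCTG stood in the windows of Acta1, Mylpf and Myl1 but not of Myh3. The Acta1 window also held a CArG box, the motif of serum response factor, 73 bases before the start. E-boxes are common: 66.0% of the 27025 windows in the table held at least 1, and 12.8% held a CAGCTG. Of the 8 thick filament genes that were tested in both muscles, 5 had an E-box and 3 a CAGCTG. For the genes called higher or lower in both muscles, windows were matched for only 78.9% and 78.2%, so motif shares over those sets are void and not given. A match is a run of letters and not a measured site.

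Scores ran from 153 to 475 in late EOM cells and from 213 to 503 in late TA cells, with medians of 197 and 255 UMIs per 10000. In early cells they ran from 0 to 15.9 and from 1.98 to 47.0, with medians of 7.72 and 28.8. The limits fell within a continuous range: in EOM the lowest late cell had 153.12 and the next cell 153.10, and the highest early cell 15.91 and the next 15.92. In TA the corresponding pairs were 212.95 and 212.84, and 47.04 and 47.06. These values chose the cells and are a description. Because the late group is 10% and the early group 25% of the selected cells of each library, the same score means a different rank in the 2 muscles: the early limit of TA lay above the highest score of the fifth decile in EOM, 40.6.

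**Figure D1:**
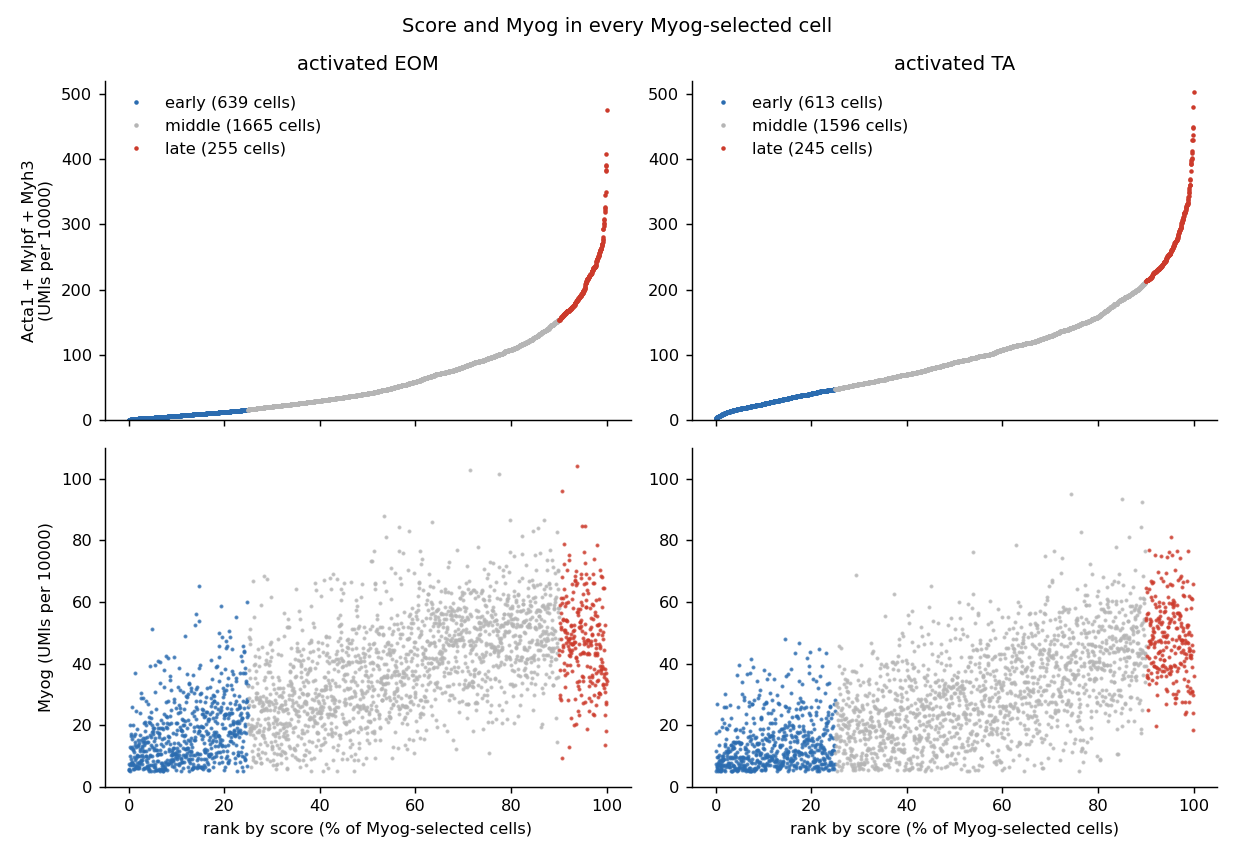
Each point is a Myog-selected cell, ranked by score from left to right within its library. The upper panels show the score and the lower panels Myog, both in UMIs per 10000. The score climbs without a step at either limit, and late cells hold Myog at a median of 47.1 (EOM) and 47.6 (TA) against 15.8 and 11.5 in early cells.

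Median UMIs per cell were 21720 in late and 22064 in early EOM cells, and 23747 and 23508 in TA. The deepest cells were early ones, with at most 54745 UMIs in late and 83885 in early EOM cells and 46438 and 111561 in TA. Late cells had fewer detected genes, with medians of 3892 against 4336 and 4111 against 4445, and a higher mitochondrial share, 7.54% against 6.22% and 7.22% against 6.23%. The part of the mitochondrial share in the results was not tested. The activated libraries shared 12 barcodes, none of them among the late and early cells. Of the cells that a doublet score (Scrublet) placed highest, 2 late and 57 early EOM cells and 2 late and 33 early TA cells would be removed.

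The labels were checked against marker genes. Titin (Ttn), the elastic scaffold of the sarcomere, which was not in the score, stood at 1336 CPM (UMIs per 1000000 UMIs of the group) in early and 4310 CPM in late EOM cells, and at 920 and 3747 CPM in TA. Quiescent cells held it at 0.712 (EOM) and 1.02 CPM (TA), and Acta1 at 0.814 and 2.32 CPM. The endothelial, immune, glial, neuronal, adipocyte and erythroid marker lists each summed to under 5 CPM in late and in early cells: the highest was the glial list, at 4.24 CPM in both EOM groups and at 4.56 (late) and 2.72 CPM (early) in TA. Of the 6 mural markers, Acta2, an actin that developing muscle also uses, had 5128 CPM in late and 1747 CPM in early EOM cells and 2960 and 829 CPM in TA, and the list without it summed to little, since the whole list came to 5138, 1774, 2982 and 844 CPM. Fibroblast markers summed to 27.1 and 53.0 CPM in late and early EOM cells and to 37.8 and 54.6 CPM in TA, and Col3a1 made up 26.3 and 37.7 CPM of the late sums. Scx, a tendon factor, had 213 and 148 CPM in EOM and 239 and 220 CPM in TA.

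The name early committed fits the rule, which asks for Myog, but these cells still carried proliferation transcripts. Mki67 stood at 217 CPM in early EOM cells and 219 CPM in the 3285 EOM cells under the Myog limit, and at 182 CPM in both groups of TA. After each cell was thinned to 5000 UMIs, 79.3% of early EOM cells and 77.5% of early TA cells held a UMI of Mki67 or Top2a, as did 82.5% of the cells with no Myog UMI in each library (median depths of 20261 and 22622.5 UMIs before thinning). Acta1, whose low level in early cells was set by the score, stood at 1140 CPM in early TA cells and 1174 CPM in those under the Myog limit, and at 170 and 105 CPM in EOM.

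Across the 4910 genes with at least 20 CPM in the Myog-selected EOM cells, 327 (6.66%) were at least 2-fold higher in late than in early cells and 713 (14.5%) at least 2-fold lower, on the log2(CPM + 1) scale. Across 4943 genes in TA, 273 (5.52%) were higher and 640 (12.9%) lower. The median log2 ratio over all genes was -0.18 in EOM and -0.20 in TA, a shift against which the ratios below should be read. With TMM factors, which bring those medians to 0.01 and -0.02, 437 and 550 genes were called in EOM and 348 and 491 in TA, so that the higher genes were 44.3% and 41.5% of calls in place of 31.4% and 29.9%. In both muscles together, 228 of 4708 genes (4.84%) were higher in late cells of each and 519 (11.0%) lower in each, and 0 were called in opposite directions. Among genes tested in both, the shared genes were 82.6% of the higher calls of EOM and 86.4% of those of TA, and 76.8% and 89.8% of the lower calls. Genes called higher held 12.3% of the UMIs of late and 2.61% of those of early EOM cells, and 11.4% and 2.42% in TA.

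**Figure D2:**
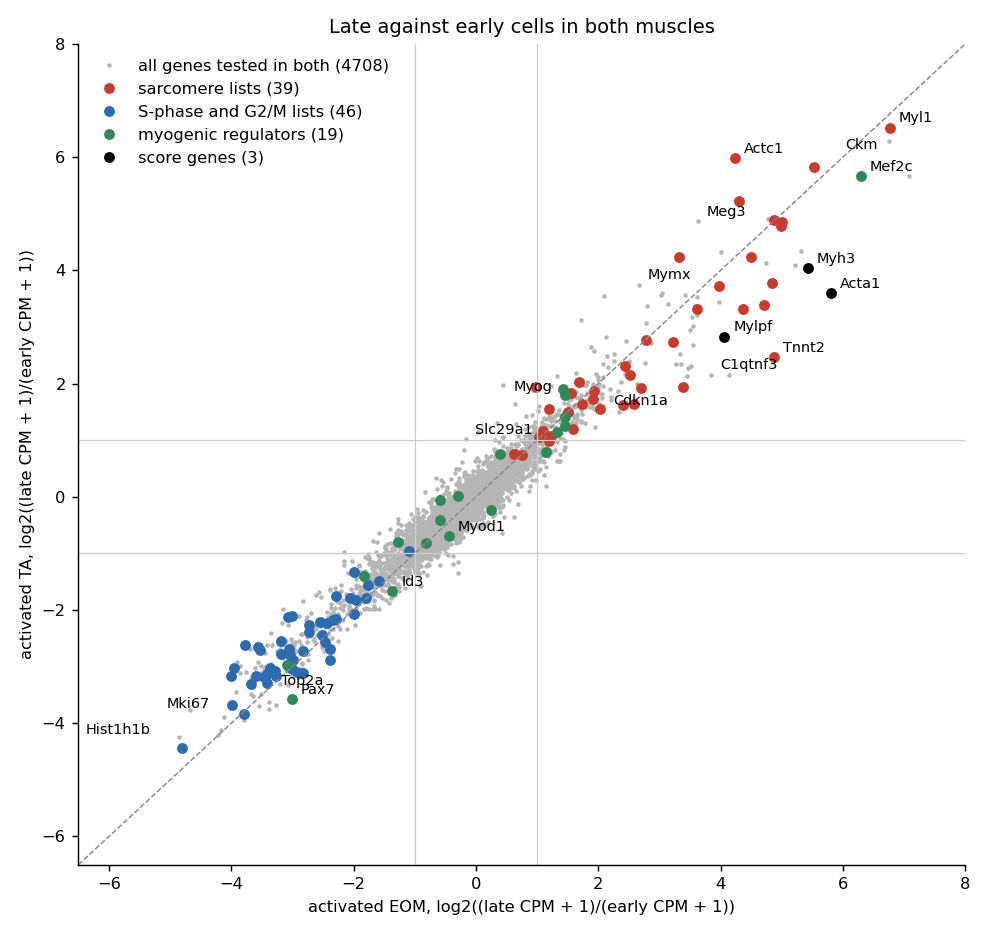
Each point is a gene tested in both muscles, with the log2 ratio of late to early cells in EOM on the x axis and in TA on the y axis; grey lines mark 2-fold and the dashed line equal ratios. Sarcomere genes fill the upper right and cell-cycle genes the lower left, and Pearson's r across the 4708 genes was 0.96, a description in which genes are not independent and the score genes set part of the range.

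The genes of the thin filament, on which myosin pulls, were higher in late cells almost throughout. Of the listed genes that were tested, 16 of 17 in EOM and 15 of 16 in TA were at least 2-fold higher and none lower, with median log2 ratios of 3.32 and 2.40. Cardiac actin (Actc1), the alpha-actin of developing muscle, stood at 343 CPM in early and 6476 CPM in late EOM cells and at 44.4 and 2857 CPM in TA. Both muscles thus had it far higher in late cells, 18.9-fold (18.3 to 19.4) in EOM and 64.3-fold (59.6 to 69.5) in TA. The troponin subunits, which make the filament respond to calcium, were all in the group. Cardiac troponin T (Tnnt2) had 58.9 and 1768 CPM in early and late EOM cells and 411 and 2285 CPM in TA. Slow troponin I (Tnni1) had 62.1 and 1802 CPM in EOM and 127 and 1749 CPM in TA. Fast troponin T (Tnnt3) and slow troponin T (Tnnt1) were already present early, at 442 and 849 CPM in EOM, and were 5.73-fold and 2.85-fold higher late. Nebulin (Neb), which runs along the filament, was 5.46-fold and 5.02-fold higher. Leiomodin 2 (Lmod2), which nucleates actin filaments, went from 4.76 to 183 CPM in EOM and from 4.15 to 149 CPM in TA. Tpm1 was the member that did not reach 2-fold, at 1739 and 2700 CPM in EOM and 1096 and 1839 CPM in TA.

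Tnnc2, fast troponin C, needs care because it overlaps Ube2c, a mitotic ubiquitin-conjugating enzyme gene on the other strand of chromosome 2. Tnnc2 was 26.6-fold and 10.5-fold higher in late cells and Ube2c 0.288-fold and 0.289-fold, so the pair was called in opposite directions; the use of strand in counting is not given in the sources used here. Cryab and Hspb2 also overlap on opposite strands, and both were higher in late cells.

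Thick filament genes gave 8 of 9 tested members higher in EOM and 8 of 8 in TA, with none lower. Myl1 stood at 16.7 CPM in early and 1929 CPM in late EOM cells and at 21.2 and 2041 CPM in TA. Its ratios were 115-fold (102 to 131) and 96.3-fold (86.3 to 108). Thinned to 5000 UMIs, 95.7% of late EOM and 95.1% of late TA cells held a Myl1 UMI, against 8.29% and 8.32% of early cells and 2.51% and 2.91% of cells with no Myog UMI. Myh1, an adult fast myosin heavy chain, had 9.26 and 201 CPM in EOM and 2.53 and 130 CPM in TA. Perinatal myosin (Myh8) had 2.31 and 210 CPM in EOM; in TA, at 0.389 and 97.3 CPM, it was under the limit for testing. Unc45b, a chaperone that folds myosin heads, was 39.4-fold and 34.2-fold higher. The member below 2-fold in EOM was Mybpc1, slow myosin-binding protein C, at 67.3 and 135 CPM, with a log2 ratio of 0.99.

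Of the titin and Z-disc genes, 15 of 16 in EOM and 13 of 16 in TA were higher in late cells and none lower. Csrp3, a Z-disc LIM protein, had 1.74 and 124 CPM in EOM and 2.14 and 177 CPM in TA. Ldb3, which binds alpha-actinin, had 5.34 and 185 CPM in EOM and 4.41 and 160 CPM in TA. Desmin (Des), an intermediate filament protein present in myoblasts, differed little more than 2-fold, 2.13-fold and 2.24-fold. Sync, a desmin partner, stayed under 2-fold at 32.8 and 56.0 CPM in EOM and 27.0 and 45.8 CPM in TA.

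Genes that couple the nerve impulse to calcium release were mostly higher in late cells where they could be tested. Of the 27 listed genes, 16 were tested in EOM and 14 in TA, and the rest were under the limit. Of those tested, 13 in EOM and 11 in TA were higher, none lower. With Myog matched, 11 and 7 were higher. Calsequestrin 2 (Casq2), which stores calcium in the sarcoplasmic reticulum, had 0.386 CPM in early and 186 CPM in late EOM cells and 2.85 and 196 CPM in TA. The fast calcium pump Atp2a1 had 27.9 and 235 CPM in EOM and 11.1 and 142 CPM in TA, whereas Atp2a2, the slow and housekeeping pump, was 1.52-fold and 1.40-fold higher. Ryr1, the calcium release channel, was 3.97-fold and 3.03-fold higher.

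At the surface, 8 of 12 genes of the dystrophin complex and sarcolemma were higher in EOM and 6 of 10 in TA. Caveolin 3 (Cav3) had 10.5 and 308 CPM in EOM and 13.2 and 248 CPM in TA. Dystroglycan (Dag1) differed by 1.02-fold and 1.13-fold, so the complex was not uniformly higher. Neuromuscular junction genes were mostly short of 2-fold, with 2 of 7 higher in EOM and 1 of 8 in TA, against 6.66% and 5.52% of all genes tested. The fetal acetylcholine receptor subunit Chrng was the member higher in both, 69.2 to 246 CPM and 46.3 to 166 CPM, while Chrna1, already at 918 and 1019 CPM early, was 1.78-fold and 1.66-fold higher. With TMM factors the junction counts were 5 of 7 and 3 of 8.

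Fusion genes were few but clear. Myomaker (Mymk), the membrane protein needed for myoblast fusion, had 116 CPM in early and 797 CPM in late EOM cells and 153 and 789 CPM in TA. Myomixer (Mymx), its small partner, had 155 and 986 CPM in EOM and 47.0 and 643 CPM in TA. Tmem182 was the remaining gene higher in both muscles, and the cell-surface receptor Cdon was lower in EOM at 0.469-fold. The list gave 3 of 8 higher in EOM and 3 of 9 in TA, against 6.66% and 5.52% of all genes tested. M-cadherin (Cdh15) was not higher, at 163 and 124 CPM in EOM and 93.2 and 93.1 CPM in TA. In thinned cells Mymk was found in 95.7% and 96.7% of late cells and in 42.4% and 52.0% of early cells, so it was not confined to late cells.

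**Figure D3:**
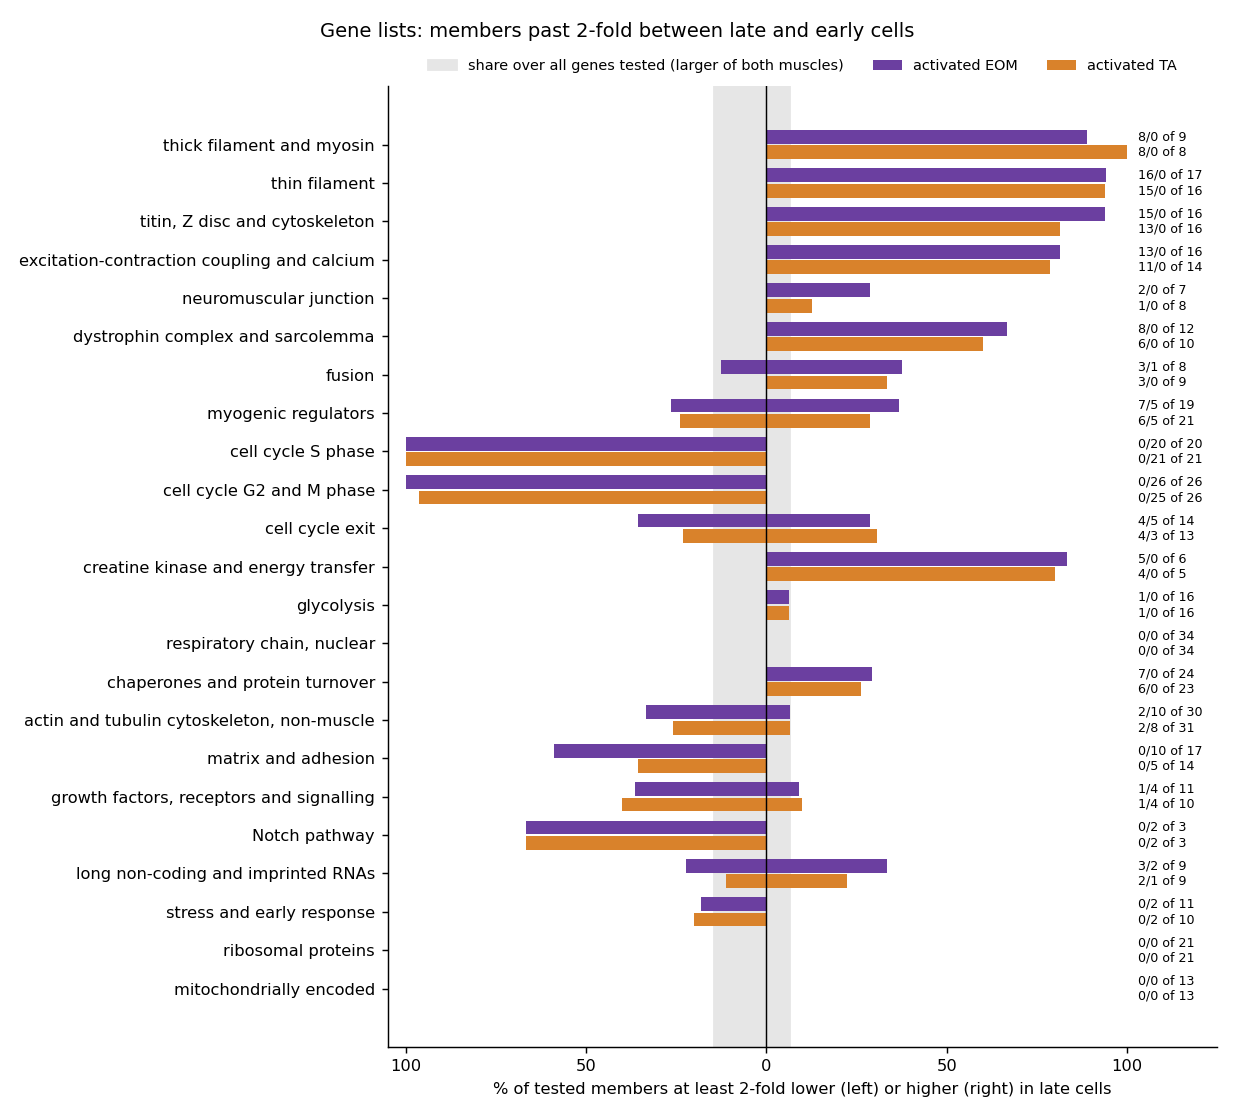
Bars give the share of each list's tested members at least 2-fold higher (right) or lower (left) in late cells, with counts of higher/lower members and of members tested at the right edge; grey shows the share over all genes tested. The sarcomere lists reach 81% to 100% higher and the 2 cell-cycle lists 96% to 100% lower, while respiratory chain, ribosomal and mitochondrially encoded genes have no member past 2-fold.

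Regulators of myogenesis split. Of those tested, 7 of 19 in EOM and 6 of 21 in TA were higher in late cells and 5 in each muscle lower. Among all genes tested, 6.66% and 5.52% were higher and 14.5% and 12.9% lower. Mef2c, a MADS-box factor that acts with the MyoD family on contractile genes, had 6.24 CPM in early and 567 CPM in late EOM cells, and 6.03 and 353 CPM in TA. That was 90.8-fold (74.2 to 112) and 58.6-fold (47.6 to 72.9), and no single cell held more than 2.34% of the late Mef2c UMIs. Its share of thinned cells was 80.4% and 70.6% in late cells, 3.76% and 3.43% in early cells, and 1.99% and 0.529% in cells with no Myog UMI. Its relatives Mef2a and Mef2d differed far less, by 2.53-fold and 2.81-fold in EOM and 2.23-fold and 2.43-fold in TA. Myog itself, whose lower limit the rule set, was 1683 and 4612 CPM in EOM and 1374 and 4799 CPM in TA. Tead4 and the RNA-binding protein Rbm38 were the other regulators higher in both muscles. With Myog matched, Rbm38 had log2 ratios of 0.03 in EOM and 0.34 in TA, and Tead4 0.94 and 1.24. Mef2a then had 0.76 and 0.41, and Mef2d 0.65 and 1.04.

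The regulators lower in late cells included Pax7, Id2, Id3 and Tcf3. Pax7, which marks the stem cell, had 38.5 CPM in early and 3.89 CPM in late EOM cells and 45.2 and 2.87 CPM in TA. With Myog matched between the groups the log2 ratio of Pax7 was -0.65 in EOM, short of 2-fold, in place of -3.01, and -2.25 in TA. Id2 and Id3, inhibitors of MyoD activity, were 0.113-fold and 0.385-fold in EOM and 0.125-fold and 0.314-fold in TA, and Tcf3, which encodes an E-protein partner of MyoD, was 0.271-fold and 0.375-fold. Also with Myog matched, Id3 had log2 ratios of -0.76 and -0.68 and Tcf3 in TA -0.86, short of 2-fold. Id1 was 0.564-fold in each muscle. The stem cell marker list summed to 30.1 CPM in late and 93.2 CPM in early EOM cells and to 34.1 and 109 CPM in TA. Its 2 tested members, Pax7 and Sdc4, were lower in both muscles, Sdc4 at 0.156-fold and 0.141-fold. Spry1, a signalling inhibitor of quiescent stem cells and under the limit for testing, was 1.82-fold (1.41 to 2.33) and 1.83-fold (1.46 to 2.30) higher. The myoblast list summed to 2335 CPM in late and 2019 CPM in early EOM cells and to 2534 and 2415 CPM in TA. Of its members desmin was higher, while Myf5 was 0.130-fold in EOM, where it was under the limit for testing, and 0.173-fold in TA. With Myog matched, Myf5 in TA had a log2 ratio of -0.63, short of 2-fold. Myod1 differed less, from 1202 to 883 CPM in EOM and from 1605 to 988 CPM in TA, short of 2-fold. The GFP transgene was at 12.7 CPM in early and 1.41 CPM in late EOM cells and at 16.4 and 1.86 CPM in TA.

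Cell-cycle genes were the counterpart of the sarcomere. All 20 S-phase genes tested in EOM and all 21 in TA were at least 2-fold lower in late cells, and 26 of 26 and 25 of 26 G2/M genes; the exception was Ccnb2 in TA, at 108 and 54.9 CPM. Median log2 ratios were -2.86 and -2.54 for S phase and -3.00 and -3.04 for G2/M. Cells with at most 5% mitochondrial UMIs were few, 14 late and 35 early in EOM and 14 and 36 in TA. There Cdk1 had log2 ratios of -0.38 and -0.47 in place of -3.18 and -2.77, short of 2-fold. Cenpe had -0.66 and -0.95 in place of -3.80 and -3.83. Hells in EOM (-6.97) and Plk1 in TA (-1.28) stayed past 2-fold. Mki67 was 217 and 12.7 CPM in EOM and 182 and 13.3 CPM in TA, and Top2a, which untangles replicated DNA, 392 and 37.1 CPM and 373 and 44.6 CPM. Hells, a chromatin remodeller used in S phase, went from 101 to 2.65 CPM and from 104 to 3.89 CPM. The linker histone Hist1h1b was 211 and 6.37 CPM in EOM and 182 and 8.62 CPM in TA. Late cells were not all without these transcripts: after thinning, 13.3% of late EOM and 11.8% of late TA cells held Mki67 or Top2a, and without thinning 34.9% and 31.8%.

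The promoters of Top2a and Cdk1, the kinase that drives mitosis, are shown as examples of genes that were low together in late cells, at chr11:99024190-99024439 and chr10:69352913-69353162 (both minus strand, RefSeq on GRCm38.p6). Capitals mark CCAAT, the box bound by NF-Y, and TTTGAA, a core letter sequence of cell-cycle homology elements, on either strand.
Top2a: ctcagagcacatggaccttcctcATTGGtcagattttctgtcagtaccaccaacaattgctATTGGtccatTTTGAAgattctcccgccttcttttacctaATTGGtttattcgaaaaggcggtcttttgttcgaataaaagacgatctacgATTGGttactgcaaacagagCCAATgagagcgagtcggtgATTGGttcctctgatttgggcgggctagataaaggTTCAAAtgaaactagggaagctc
Cdk1: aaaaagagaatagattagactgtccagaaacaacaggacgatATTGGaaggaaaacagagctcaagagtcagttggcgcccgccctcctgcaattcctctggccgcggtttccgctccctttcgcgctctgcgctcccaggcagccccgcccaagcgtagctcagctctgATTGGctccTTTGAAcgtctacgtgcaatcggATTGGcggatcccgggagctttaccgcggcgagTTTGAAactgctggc

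Top2a held 6 CCAAT boxes and 2 TTTGAA runs, and Cdk1 3 and 2. Of the 23 G2/M genes with a window, 20 (87.0%) held a CCAAT and 8 (34.8%) a TTTGAA, against 34.5% and 16.3% of all windows, which include those of genes not measured here. The S-phase list had 11 of 17 (64.7%) with CCAAT and 3 of 17 (17.6%) with TTTGAA.

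Genes of cell-cycle exit were mixed, with 4 of 14 higher and 5 lower in EOM and 4 of 13 higher and 3 lower in TA. The shares over all genes tested were 6.66% and 5.52% higher and 14.5% and 12.9% lower. Their median log2 ratios were -0.40 and -0.09. With Myog matched, 1 was higher and 6 lower in EOM, and 2 and 5 in TA. Of all genes, 244 were then higher and 516 lower of 4910 in EOM, and 372 and 500 of 4943 in TA. The inhibitor Cdkn1a (p21) was 321 and 1343 CPM in EOM and 387 and 1300 CPM in TA, 4.19-fold and 3.36-fold higher in late cells. Rb1, the retinoblastoma protein gene, was 3.49-fold and 4.06-fold higher, and Gadd45a 2.48-fold and 2.36-fold. Cyclin D1 (Ccnd1), which drives entry into the cycle, was 118 and 13.8 CPM in EOM and 222 and 23.7 CPM in TA, while Ccnd3 was 0.876-fold and 1.28-fold. Cdkn1c (p57) was higher in late cells of both muscles but at very different levels: 503 and 1192 CPM in EOM and 29.6 and 80.2 CPM in TA. In EOM the Cdkn1c difference was reversed in cells without Mki67 or Top2a, with a log2 ratio of -0.28, and in cells matched on Myog, with -0.26.

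Along the score, the programmes did not move at one point. Counted in deciles of the Myog-selected cells, thin filament genes first reached 50% of their highest level at a median of decile 7 in EOM and 8 in TA, and thick filament genes at decile 9 in both. S-phase genes dropped under 50% of their first decile level at a median of decile 7 in EOM and 9 in TA, and G2/M genes at deciles 8 and 9. Mef2c reached 50% of its highest level in the last decile of both libraries. Myog was highest in decile 9 of EOM, at 4935 CPM, with 4612 CPM in the last decile; in TA it was highest in the last. Myod1 stayed between 1116 and 1297 CPM over the first 9 deciles of EOM before the 883 CPM of the last. Ckm, muscle creatine kinase, was 0.955 CPM in the first and 245 CPM in the last decile of EOM and 1.01 and 188 CPM in TA. Cells are ordered by the score here, so that these profiles describe the ordering and are not a time course.

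**Figure D4:**
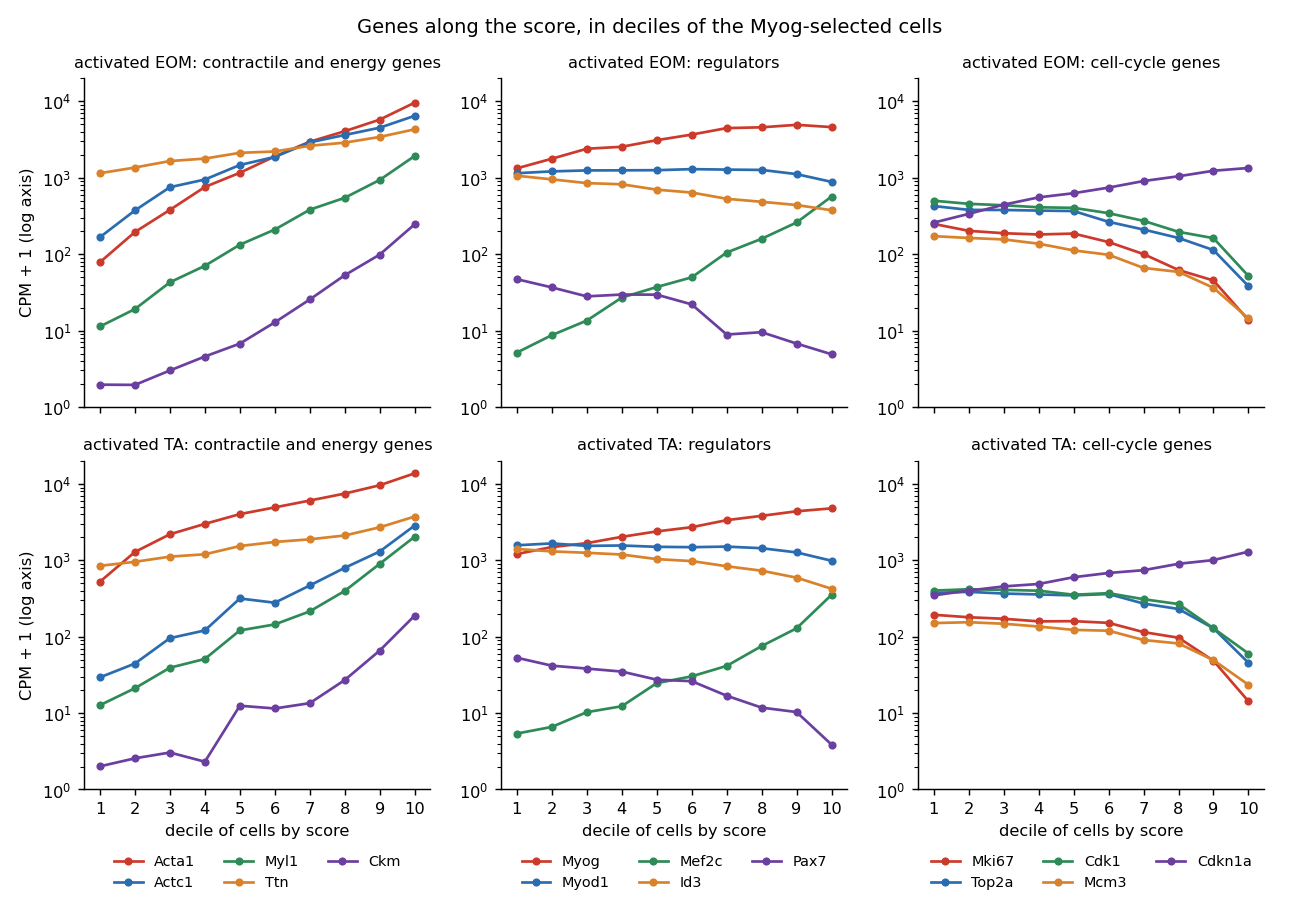
Lines give CPM + 1 on a log axis for 15 genes in deciles of the Myog-selected cells from the lowest (1) to the highest score (10), for EOM (top) and TA (bottom). Mef2c and Ckm are highest in the last decile, Mki67, Top2a, Cdk1 and Mcm3 drop in the upper deciles, and Myod1 in EOM stays between 1116 and 1297 CPM up to decile 9.

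Energy genes did not all differ alike. In creatine kinase and energy transfer, 5 of 6 tested genes were higher in EOM and 4 of 5 in TA. Besides Ckm, these included Ckb, another creatine kinase gene, which was 5.21-fold and 4.13-fold higher. Myoglobin (Mb), the oxygen-binding protein of muscle, had 7.33 and 227 CPM in EOM and 7.39 and 250 CPM in TA. Among 16 glycolytic genes 1 passed 2-fold, near the 6.66% and 5.52% of all genes that were higher. It was the muscle phosphoglycerate mutase Pgam2, at 32.0 and 381 CPM in EOM and 35.1 and 326 CPM in TA. Its general form Pgam1 was 0.580-fold and 0.706-fold. None of 34 nuclear respiratory chain genes passed 2-fold in either muscle, and their medians were 0.20 and 0.24. The 13 mitochondrially encoded genes had medians of 0.21 and 0.12 with none past 2-fold. Ribosomal protein genes, none past 2-fold, had medians of -0.19 and -0.15, close to the shift of all genes, and 0.01 and 0.03 with TMM factors.

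Chaperones gave 7 of 24 and 6 of 23 higher and none lower, against 6.66% and 5.52% higher and 14.5% and 12.9% lower of all genes tested. The small heat shock proteins were the larger part: Hspb1 was 2.83-fold and 3.12-fold higher, Hspb3 48.1-fold and 18.7-fold, and Hspb8 3.14-fold and 3.04-fold. General chaperones differed little, Hspa8 by 1.10-fold and 1.14-fold. Trim54, a ubiquitin ligase of the sarcomere, had 13.8 and 163 CPM in EOM and 29.4 and 147 CPM in TA.

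Non-muscle cytoskeleton genes held more lower than higher members, with 10 of 30 lower and 2 higher in EOM and 8 of 31 lower and 2 higher in TA. The shares over all genes tested were 14.5% and 12.9% lower and 6.66% and 5.52% higher. With Myog matched, 6 were lower and 2 higher in EOM. In TA 3 were then lower and 3 higher, with a median log2 ratio of -0.01 in place of -0.30. Actg1, cytoplasmic gamma-actin, was 3256 and 935 CPM in EOM and 4347 and 1576 CPM in TA, and Actb 3276 and 1279 CPM and 3660 and 2072 CPM, the latter short of 2-fold in TA. Tagln2 was among the lowest ratios of any gene named by rule, at 272 and 13.8 CPM in EOM and 386 and 20.1 CPM in TA, whereas its relative Tagln was 5.57-fold and 4.53-fold higher. Tubb5 was 0.251-fold and 0.411-fold and Tubb6 2.63-fold and 2.37-fold. Cofilin 1 (Cfl1) was 0.410-fold and 0.496-fold, and the muscle form Cfl2 1.91-fold and 1.72-fold.

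Matrix and adhesion genes were lower or level, with 10 of 17 lower in EOM, 5 of 14 in TA and none higher. With Myog matched, the matrix and adhesion list gave 4 of 17 lower in EOM and, in TA, 1 of 14 lower and 1 higher, with a median log2 ratio of 0.06 in place of -0.90. Osteopontin (Spp1) had 127 and 17.7 CPM in EOM and 260 and 57.3 CPM in TA. Mgp, an inhibitor of calcification, was 73.5 and 4.60 CPM in EOM and in TA only 2.40 and 0.676 CPM, under the limit for testing. Growth factor and receptor genes gave 4 of 11 lower and 1 higher in EOM, and 4 of 10 lower and 1 higher in TA. Over all genes tested, 14.5% and 12.9% were lower and 6.66% and 5.52% higher. The HGF receptor Met was 58.6 and 7.25 CPM in EOM and 64.8 and 6.93 CPM in TA, and the FGF receptor gene Fgfr4 was 0.185-fold and 0.225-fold. The neuregulin receptor Erbb3 was the higher one, 4.11-fold and 4.51-fold. Only 3 Notch pathway genes were tested in each muscle, of which 2 were lower, among them the ligand gene Dll1 at 0.301-fold and 0.407-fold. The other lower gene was Notch1 in EOM and Hes1 in TA. The Notch target Hes1 had log2 ratios of -2.60 in EOM, where it was under the limit for testing, and -3.33 in TA. With Myog matched the Hes1 ratios were -0.26 and -0.34, short of 2-fold. In TA the Hes1 ratio had the opposite sign, 0.67, in the 14 late and 36 early cells with at most 5% mitochondrial UMIs. Stress and early response genes gave 2 of 11 lower in EOM and 2 of 10 in TA and none higher, near the 14.5% and 12.9% of all genes, and 1 and 0 lower with TMM factors.

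Of the non-coding and imprinted RNAs, 3 of 9 were higher in EOM and 2 of 9 in TA, and 2 and 1 lower. The shares over all genes tested were 6.66% and 5.52% higher and 14.5% and 12.9% lower. Meg3, a maternally expressed long non-coding RNA, had 60.2 and 757 CPM in EOM and 29.9 and 904 CPM in TA. It overlaps the gene of a microRNA, Mir770, on the same strand. Mest was 486 and 94.9 CPM in EOM and 165 and 38.0 CPM in TA. H19 was level, at 0.984-fold and 0.948-fold.

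The size of the late to early ratio differed between muscles for some genes, and the difference could come from either end. Acta1 was 56.6-fold (54.4 to 58.9) higher in EOM and 12.1-fold (11.9 to 12.3) in TA, where early cells already held 1140 CPM against 170 CPM in EOM; Acta1 is a score gene. Tnnt2 was 30.0-fold and 5.56-fold higher, with 58.9 and 411 CPM in early cells. C1qtnf3, a secreted factor, had 23.7 and 353 CPM in EOM and 89.0 and 402 CPM in TA. In the other direction, Actc1, Meg3 and Mymx had larger ratios in TA, where early cells held less of each. The nucleoside transporter Slc29a1 was 232 and 208 CPM in EOM and 118 and 240 CPM in TA, level in 1 muscle and just past 2-fold in the other. These differences between muscles, and the part of the different score limits in them, were not tested.

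A few genes outside the lists were picked out by the rule on ratio size alone. Fgf21, a secreted metabolic hormone, had 6.81 and 220 CPM in EOM and 3.11 and 57.4 CPM in TA, the latter under the limit for testing. Csf1, the macrophage growth factor, was 58.4 and 4.07 CPM in EOM and 88.7 and 5.91 CPM in TA. The chromatin factor Atad2 was 165 and 8.49 CPM and 129 and 7.77 CPM. Hmgb2, a chromatin protein of dividing cells, was 903 and 78.0 CPM and 817 and 89.5 CPM.

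The comparison was repeated in cells without a UMI of Mki67 or Top2a and in cells matched on Myog, alternatives chosen after seeing the data. The former were not alike in cycling: their median log2 ratios were still -2.02 and -2.13 for the cell cycle S phase list and -2.56 and -2.64 for the cell cycle G2 and M phase list. Cells without a UMI of Mki67 or Top2a were 166 late and 42 early in EOM and 167 and 43 in TA. There 253 and 236 genes were higher and 541 and 532 lower; of the thin filament genes 14 of 17 and 15 of 16 were higher, and of the G2/M genes 24 of 26 were lower in each muscle, the remaining 2 being Mki67 and Top2a, which the choice of cells set to 0. Mef2c had log2 ratios of 5.53 and 5.80 against 6.29 and 5.66 in all cells, and Mymk 1.71 and 1.73 against 2.77 and 2.36. Among the regulators 2 of 19 in EOM and 5 of 21 in TA were then higher, and with Myog matched 1 and 3, in place of 7 and 6. With Myog matched to the interquartile range of the late cells, which left 37 and 10 early cells, Mef2c stood at 4.88 and 4.09 and Mymk at 1.18 and 0.91. Just 11 and 5 early cells were at or under the third quartile of late cells in summed cycle genes, and in those few Pax7 in EOM (1.91) and Myf5 in TA (3.89) had log2 ratios of the opposite sign.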

How the data were processed

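The deposited files hold unnormalized UMI counts for each gene in each barcode. The submitters' processing notes name Cell Ranger 3.0.2 and the build mm10. No annotation release, cell calling or use of strand is given in the sources used here. The 2 activated libraries held 144188957 (EOM) and 118537060 (TA) UMIs. The cells compared, the gene lists, the markers and the alternatives were chosen with earlier results of these data known. UMIs of the late and of the early cells of a library were summed and scaled to CPM. Ratios are folds of CPM with exact 95% Poisson intervals, or log2 ratios with a pseudocount of 1 CPM. Genes were tested for size at 20 CPM or more over the Myog-selected cells and called at 2-fold; no statistical test was made, since each muscle has 1 library. The late group is the top 10% and the early group the bottom 25% of the cells, so ranks, not levels, define them. The calculation was tested on simulated counts.

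Named genes were the score genes, Ttn, Myog, all myogenic regulators at 20 CPM, per muscle the 12 largest and 12 smallest ratios at 50 CPM, up to 4 highest members of each of 24 lists, and the 6 genes per direction that differed most between muscles, leaving out sex-linked, haemoglobin, mitochondrial, ribosomal and unnamed genes. Other list members, Casq2, Csrp3 and Pgam2 among them, were named after their values were seen. Gene positions came from GENCODE vM21 on GRCm38, for 30934 of 31055 features. Shares of cells were taken after thinning to 5000 UMIs, with cells without Myog UMIs set beside them. UMIs in those cells can be their own or free RNA, so the level of free RNA was not measured. Doublets were left in; Scrublet in scanpy 1.11.5 called 2 and 3 by its automatic threshold and so did not work, and removal by rank was an alternative. TMM factors came from edgeR.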

Additional observations from a re-analysis of the deposited data

How the results depend on the processing

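Of 23 alternatives, 20 were planned and 3 were chosen after seeing the data: cells without Mki67 or Top2a, cells low in cycle genes, and cells matched on Myog. Over these, 181 of 2208 list values and 2470 of 6118 single-gene values moved. With Myog matched, for example, excitation-contraction coupling and calcium genes in TA gave 7 of 14 higher in place of 11, and non-muscle cytoskeleton genes in TA 3 lower in place of 8. Counts over all genes tested stayed within 1.5 times of those reported except the following. At most 5% mitochondrial UMIs left 14 late cells in each muscle and gave 395 lower genes in TA, and 99 higher and 113 lower in both muscles. Under that limit, 59 of 79 named genes past 2-fold in EOM and 44 of 80 in TA stayed past 2-fold. A limit of 100 CPM gave 95 higher and 147 lower in EOM, 79 and 141 in TA, and 69 and 112 in both. A limit of 5 CPM gave 577 and 1483, 523 and 1334, and 429 and 1076. Without Mki67 or Top2a 145 were higher and 334 lower in both muscles, and with Myog matched 134 and 270. Cells low in cycle genes gave 522 higher in EOM, 749 higher in TA and 171 lower in both.

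Of the values of named genes past 2-fold as reported, 41 changed sign. With at most 5% mitochondrial UMIs these were Notch1 (0.52) and Hes1 (0.67) in TA and Ube2c (0.38) in EOM. Cdkn1c in EOM was -0.28 without Mki67 or Top2a and -0.26 with Myog matched. In cells low in cycle genes, with 11 early cells in EOM and 5 in TA, the log2 ratios in EOM were 2.55 for Mcm3, 1.11 for Tpx2, -0.04 for Mef2d, 1.91 for Pax7, 1.05 for Rrm1, 1.72 for Plk1, 1.82 for Mki67, -0.30 for Cdkn1c, 3.72 for Top2a, 1.82 for Hist1h1b, 2.76 for Gmnn, 0.42 for Rrm2, 2.23 for Hes1, 0.55 for Kif11 and 0.94 for Hells. In TA they were 3.82 for Mcm3, 1.22 for Sgo2a, 0.07 for Igfbp2, 0.49 for Dut, 1.88 for Tpx2, 1.04 for Ube2c, 0.53 for Mgp, 2.14 for Rrm1, 1.79 for Mki67, 0.49 for Tcf3, 3.89 for Myf5, 2.04 for Pbk, 3.57 for Top2a, 1.25 for Birc5, 1.96 for Hist1h1b, 3.93 for Gmnn, 0.25 for Rrm2, 0.28 for Basp1, 1.08 for Hes1, 1.08 for Kif11 and 1.69 for Hells. Those cells were chosen by their cycle genes, and the cause of the other changes was not tested. No paired analysis was possible because each muscle has 1 activated library. A count of 0 in late cells allows up to 0.530 CPM in EOM and 0.507 CPM in TA.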
